A study of Mus musculus with 9 samples.

Results

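Doxorubicin given together with interferon gamma was compared with a saline control in cultured mouse cells, using 6 of the 9 arrays of the series. The members were taken by their titles: 3 arrays of cells given 0.3 µM doxorubicin and 20 ng/ml interferon gamma, and 3 arrays of cells given phosphate-buffered saline (the control). The other 3 arrays held cells given 0.3 µM doxorubicin alone, and they entered the statistical fit and the direct comparison of both treatments. All cells were labelled as HL-1, 1 line described as a mouse cardiomyocyte line from heart, grown in the same medium with fetal bovine serum. Biotinylated cDNA made from 250 ng of total RNA was hybridised to Affymetrix arrays, and every value here is a log2 expression value, so that a difference of 1 is a 2-fold change. The length of treatment is not given in the sources used here, and arrays with interferon gamma alone were not analysed here. The labels do not say whether the 3 arrays of a group came from separate cultures. The spread behind each p-value is therefore that between arrays, and it may be technical.

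Doxorubicin is an anthracycline chemotherapy drug that intercalates into DNA, traps topoisomerase II on broken DNA and produces reactive oxygen species, and its use is limited by damage to heart muscle. Broken DNA activates the transcription factor p53, whose targets stop the cell cycle, while genes for DNA replication are controlled by E2F factors and those for mitosis by complexes of the MuvB core, DREAM among them. Interferon gamma is a cytokine of T cells and natural killer cells. It binds the receptor chains Ifngr1 and Ifngr2, activates the kinases Jak1 and Jak2, and turns on genes that carry GAS or ISRE sequences, among them guanylate-binding proteins, antigen-presentation genes and chemokines.

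Genes were read against a dimness limit of 4.71, the 95th percentile of the mean values of 1372 olfactory and vomeronasal receptor genes, which few tissues use. Of 12 measured cardiomyocyte markers, only Tnnt2, Nkx2-5 and Mef2c lay above this limit in the controls. Myh6, Myl7, Nppa, Nppb, Tnni3, Myl4, Ryr2, Gata4 and Tbx5 lay below it, so most defining atrial genes were not seen in these cells labelled as HL-1. Of 8 skeletal muscle markers, Myod1, Myog, Acta1 and Chrna1 lay above it. Of 17 leukocyte markers 1 lay above the limit, and so did 1 of 10 endothelial, 6 of 11 fibroblast, 5 of 10 smooth muscle and 3 of 8 epithelial markers. Control replicates 1 and 3 stood furthest apart along the second principal component of the 9 arrays, at 21.15 and -23.5, with the combined-treatment replicate 1 at 19.7, on an axis that held 14.2% of the variance. The first component held 60.1% and placed the controls at -34.5, -37.8 and -49.9 and the combined treatment at 26.5, 20.4 and 19.1.

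Relative to the controls, the combined treatment raised 2407 genes and lowered 2827 of 30050 tested, at an adjusted p under 0.05 by limma with Benjamini-Hochberg adjustment. These are 8.01% and 9.41% of the genes. Among genes above the dimness limit on the mean of all arrays, 17.1% were higher and 19.7% lower. List counts below are to be read beside both pairs of shares, since lists of bright genes are called more often. Doxorubicin alone raised 8.06% and lowered 7.53% against the same controls, so the comparisons with control share those arrays. Most calls were small: 58.5% of them, 3064 genes, differed by less than 1.5-fold, while 325 genes rose (1.08%) and 440 fell (1.46%) by at least 2-fold. When protein-coding genes were tested alone, 181 of them fell by at least 2-fold. Of the 5234 called genes, 3320 (63.4%) stayed called when any one of the 9 arrays was left out. The arrays of the combined treatment and the controls did not overlap in 33.0% of all genes and in 5227 of the called genes. Across all genes the median difference was -0.02, and the 95% interval of a difference reached a median of 0.19 to either side. In whole-culture RNA, fewer cells of a type and less RNA per cell cannot be told apart.

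**Figure D1:**
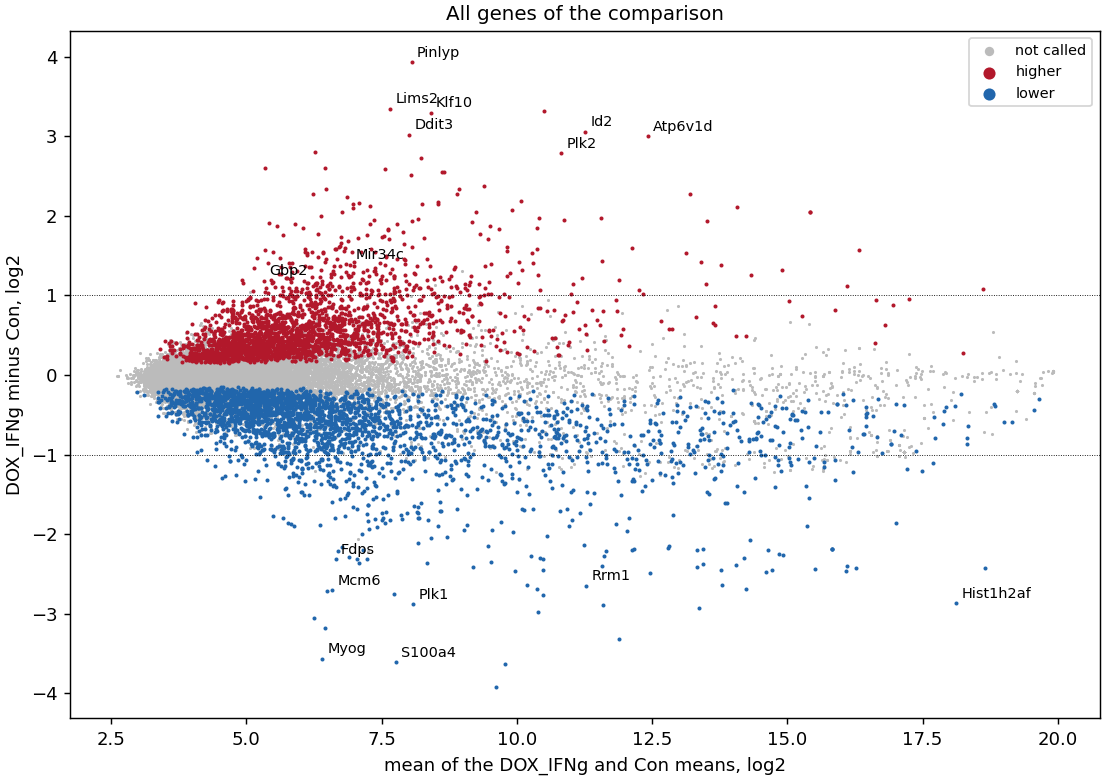
Difference between the combined treatment (DOX_IFNg) and control (Con) in log2 units against the mean of both group means, for all 30050 genes, with called genes in colour and dotted lines at a 2-fold change. The genes reach from -3.93 (the pseudogene Gm6091) to 3.93 (Pinlyp), and 325 called genes lie above the upper line and 440 below the lower one.

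The largest rise among protein-coding genes was that of Pinlyp, a gene named for phospholipase inhibition, whose control arrays read 5.69, 6.22 and 6.37 and whose combined-treatment arrays read 9.44, 10.07 and 10.55. Its difference was 3.93 (SE 0.36, adjusted p = 0.000172), a 15.2-fold rise. Lims2, an adaptor of integrin adhesion sites, moved from 5.96, 5.95 and 6.04 to 9.18, 9.33 and 9.46, a difference of 3.34. For both genes every treated array lay more than 2 log2 units above every control array. Gadd45g, a stress-induced growth arrest gene, rose by 3.32. Klf10, a zinc-finger factor induced by transforming growth factor beta, rose by 3.30, and Id2, which blocks basic helix-loop-helix factors, rose by 3.06. Further large rises were those of Mmp2, a gelatin-degrading protease (2.80), and Vegfa, a growth factor for blood vessels (2.56). Txnip, which binds thioredoxin and restrains glucose uptake, rose by 2.55. Each of these genes kept its call when any one array was left out.

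Among the falls of protein-coding genes, S100a4, a calcium-binding protein of motile cells, was the largest, with control arrays at 9.36, 9.60 and 9.74 and combined-treatment arrays at 6.16, 5.55 and 6.16. Its difference was -3.61 (SE 0.20, adjusted p = 1.66e-05), and the arrays did not overlap, which the choice of the largest falls required. Myog, the transcription factor that commits myoblasts to differentiate, fell from 8.23, 7.97 and 8.34 to 4.75, 4.44 and 4.64, a difference of -3.57 (SE 0.14, adjusted p = 5.74e-06). Its treated arrays lay around the dimness limit of 4.71. Dpysl2, a microtubule-associated protein, fell by 2.35, Nfib, a chromatin-binding transcription factor, fell by 2.31, and Ahcy, which clears S-adenosylhomocysteine, fell by 2.12. Atp5g2, which encodes the c subunit of the mitochondrial ATP synthase, fell by 2.20. Hist1h2af, a replication-dependent histone H2A gene, fell by 2.87, but its control arrays, at 19.43, 19.51 and 19.72, lay close to the highest value of the table, 19.93.

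**Figure D2:**
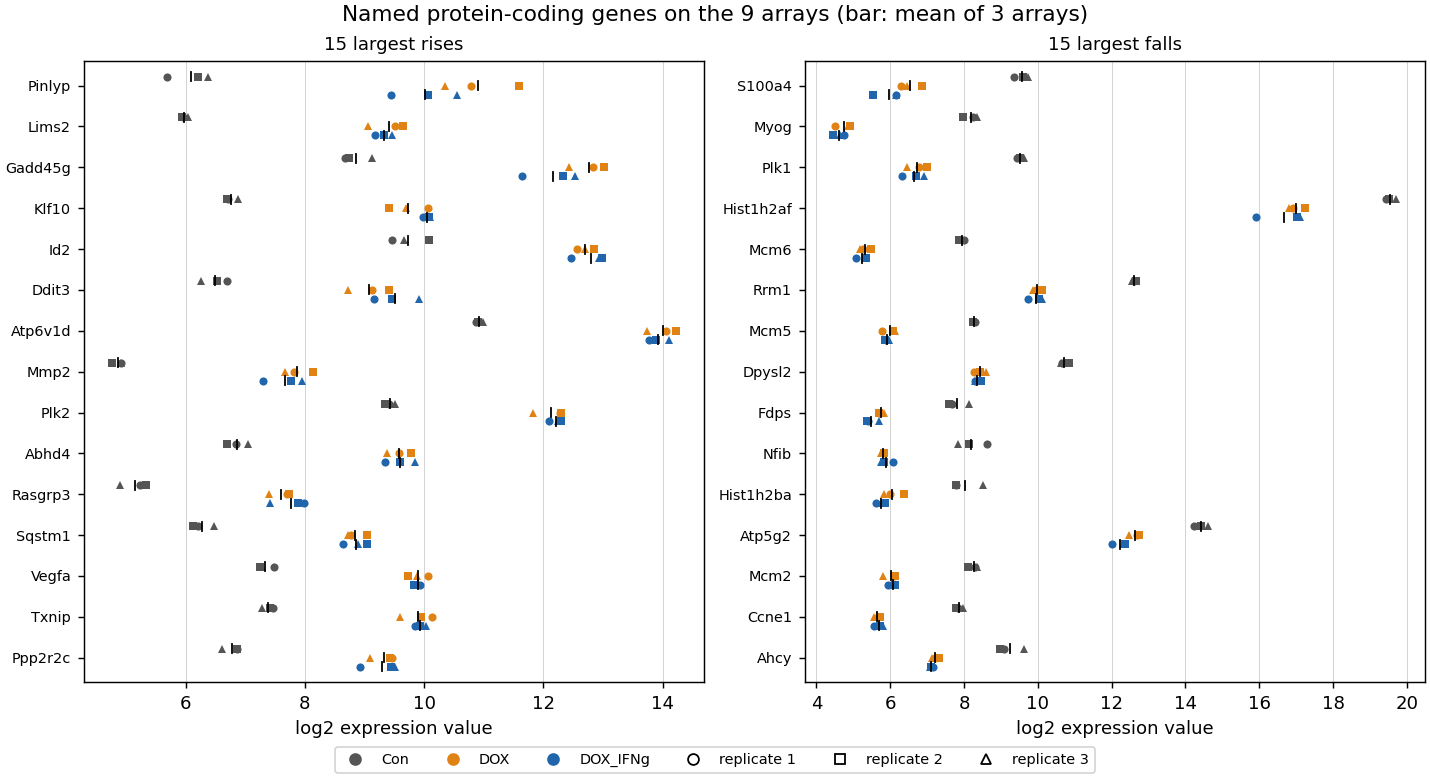
Log2 expression values of the 15 protein-coding genes with the largest rise (left) and the 15 with the largest fall (right) on the 9 arrays, coloured by group (Con, DOX, DOX_IFNg), with marker shapes for replicates and bars for group means. The genes were chosen among those whose combined-treatment arrays stand clear of the control arrays, and the arrays with doxorubicin alone lie near the combined treatment.

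Most genes of DNA replication fell. Of 33 measured replication and G1/S genes, 26 were called lower and 2 higher, with a median difference of -0.72 beside -0.02 over all genes. Restricted to genes above the dimness limit, the median was -1.07. That restriction used the mean of all arrays, controls included, so a gene that fell could pass through its bright controls. The minichromosome maintenance genes encode the helicase that opens the DNA at replication origins. Mcm6 fell from 8.01, 7.86 and 7.96 to 5.06, 5.34 and 5.32, a difference of -2.70 (SE 0.10, adjusted p = 5.74e-06), and Mcm5 from 8.30, 8.25 and 8.26 to 5.90, 5.87 and 5.96, a difference of -2.36. Mcm2 fell by 2.19, Mcm4 fell by 2.04 and Mcm3 fell by 1.51. These 5 helicase genes had treated arrays entirely below the controls, where 33.0% of all genes had arrays that did not overlap, in either direction. Mcm7, on the same list, was not analysed here. Rrm1, the large subunit of the reductase that makes deoxynucleotides, fell from 12.60, 12.66 and 12.56 to 9.73, 10.03 and 10.10, a difference of -2.65, and its small subunit Rrm2 fell by 1.07. Ccne1, the cyclin that starts S phase, fell by 2.16 (SE 0.08, adjusted p = 5.74e-06), its partner gene Ccne2 fell by 1.04, and Pcna, the sliding clamp of the polymerases, fell by 1.16. Against this run, Tyms, thymidylate synthase, rose by 0.63 (adjusted p = 0.0081) and stayed called without any one array. Rfc4, a clamp-loader subunit, was called higher at 0.46 (adjusted p = 0.0229), but lost its call without any 1 of the control arrays or the combined-treatment replicate 2 or 3, with an adjusted p of up to 0.0823.

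The promoter of Mcm6 is shown because Mcm6 had the largest fall of the list and carries the E2F letters searched (TTTCGCGC, TTTGGCGC, TTCCCGCC or TTCCCGCG on either strand). It is RefSeq sequence of build GRCm38.p6, chr1:128359676-128359925, minus strand, 5′ to 3′, from 220 bases before to 30 bases after the gene's start. Capitals mark 3 matches, of which 2 overlap each other.
Mcm6 promoter: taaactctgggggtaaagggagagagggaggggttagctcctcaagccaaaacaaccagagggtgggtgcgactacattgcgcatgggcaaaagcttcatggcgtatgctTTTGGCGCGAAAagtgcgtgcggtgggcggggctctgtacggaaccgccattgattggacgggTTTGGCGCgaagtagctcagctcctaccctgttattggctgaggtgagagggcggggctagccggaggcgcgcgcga
In windows of 300 bases around the start (250 before, 50 after), such letters stood in 13 of the 27 replication genes with a window, 48.1%, and in 3.93% of all 27025 windows. Of the 13 genes, 10 were called lower, 1 (Rfc4) higher and 2 were not called. Among the genes without a match, 11 were called lower, so the fall was not limited to promoters with these letters. E2F matches overlapped CCAAT matches in 13 of all windows and ISRE matches in 5.

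Most mitotic genes fell as well. Of 29 measured genes of mitosis and cytokinesis, 22 were called lower and 1 higher, with a median difference of -0.58. Plk1, the kinase that drives entry into and passage through mitosis, fell from 9.43, 9.53 and 9.62 to 6.32, 6.69 and 6.92, a difference of -2.88 (SE 0.17, adjusted p = 2.23e-05), a 7.38-fold fall. Kif20a, a motor needed for cytokinesis, fell by 1.60, and Kif2c, which trims microtubules at kinetochores, fell by 1.35. Bub1, a spindle checkpoint kinase, fell by 1.27 and Cdc20, which activates the anaphase-promoting complex, fell by 1.07. Top2a, the topoisomerase II isoform of dividing cells and a doxorubicin target, fell from 6.37, 6.13 and 5.95 to 5.18, 5.24 and 5.09, a difference of -0.98 (adjusted p = 0.000284). Its sister gene Top2b, the isoform of resting cells, read 8.31, 7.93 and 7.35 and 8.11, 7.73 and 7.22, so the groups overlapped, with a difference of -0.17 (95% interval -0.80 to 0.45). Mki67, the proliferation marker, fell by 0.91 and Cdk1, the mitotic kinase, fell by 0.76.

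Ccnb2, mitotic cyclin B2, fell from 6.60, 6.42 and 6.18 to 5.26, 5.29 and 5.48, a difference of -1.06 (SE 0.11, adjusted p = 0.000259). Its promoter is shown because it holds 2 matches, in capitals, to the cell cycle homology region (CHR, TTTGAA or TTCGAA on either strand), at chr9:70421525-70421774 of GRCm38.p6, minus strand, 5′ to 3′.
Ccnb2 promoter: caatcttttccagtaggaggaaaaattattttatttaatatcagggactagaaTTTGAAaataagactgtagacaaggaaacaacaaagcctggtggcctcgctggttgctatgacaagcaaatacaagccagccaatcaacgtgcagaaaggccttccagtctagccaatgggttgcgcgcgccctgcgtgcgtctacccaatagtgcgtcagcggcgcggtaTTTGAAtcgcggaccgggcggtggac
CHR letters stood in 19 of the 24 mitotic genes with a window, 79.2%, and in 19.4% of all windows. Of those 19 genes, 16 were called lower and 3 were not called. Among the genes with a window but no match, 2 were called lower and 3 were not called. CHR matches overlapped GAS matches in 142 of all windows, CCAAT matches in 41 and ISRE matches in 18.

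Replication-dependent histone genes, whose transcripts are made in S phase, were lower in 12 of 15 and higher in none, with a median of -0.69. Hist1h2bh fell by 1.30 (adjusted p = 0.00407), Hist1h3g fell by 0.76 and Hist1h2bk fell by 0.74. These histone genes are near-identical copies, so probes may read more than one of them. Checkpoint and repair genes, 26 in all, were lower in 13 and higher in 3. Fancd2, of the Fanconi pathway that repairs DNA cross-links, fell from 6.20, 6.20 and 6.01 to 4.99, 4.99 and 5.10, a difference of -1.11 (adjusted p = 2.73e-05), and its partner Fanci fell by 0.97. H2afx, the histone variant marked at DNA breaks, fell by 0.93. In the opposite direction, Atr, the kinase that senses stalled replication, rose by 1.0 (adjusted p = 0.0076), and Rad50, of the complex that binds broken ends, by 0.98 (adjusted p = 0.00855). The treated arrays of Atr spread over 6.57, 6.58 and 5.90, with replicate 3 the lowest.

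Targets of p53 moved the other way. Of 30 measured p53 targets, 17 were called higher and none lower, beside 8.01% higher over all genes, and 13 of the 17 stayed called without any one array. Their median difference was 0.30, and 0.75 when restricted to genes above the dimness limit. That restriction used the mean of all 9 arrays, treated ones included, so a dim gene could pass through its own rise. Plk2, a polo-like kinase, rose from 9.41, 9.34 and 9.51 to 12.09, 12.29 and 12.25, by 2.79 (SE 0.13, adjusted p = 7.57e-06), a 6.92-fold rise. Eda2r, a death-receptor family member, rose from 5.31, 5.29 and 4.68 to 7.60, 7.39 and 7.11, by 2.27 (adjusted p = 8.54e-05). Ephx1, an epoxide hydrolase, rose by 2.18, Ccng1, a cyclin that limits p53, by 1.74, and Trp53inp1, which promotes p53-dependent death and autophagy, by 1.54. All of these had arrays that did not overlap, as did 33.0% of all genes. Mdm2, the ligase that degrades p53, rose from 5.17, 5.09 and 5.13 to 5.97, 5.71 and 5.96, by 0.75 (adjusted p = 0.00068), and Sesn2, a sestrin that restrains growth signalling, by 0.91. Pmaip1, the pro-death protein Noxa, rose by 1.26 (adjusted p = 0.0013).

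The cell cycle inhibitor Cdkn1a, the p53 target best known for stopping the cycle, rose less and less firmly: the controls read 5.66, 5.66 and 5.68, doxorubicin alone 6.11, 5.95 and 6.05 and the combined treatment 5.91, 6.07 and 6.52. Its difference was 0.50 (adjusted p = 0.0383), and it stayed called in 2 of the 9 fits that left out 1 array. It lost its call without any 1 of the control arrays, any 1 of the arrays with doxorubicin alone, or the combined-treatment replicate 2, with an adjusted p of up to 0.0982. Btg2, another antiproliferative target, was not called, with values of 7.98, 8.20 and 8.73 after treatment and a difference of 0.63 (95% interval 0.14 to 1.11). Trp53, Gdf15 and Bax were not analysed here.

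MicroRNA genes of the miR-34 family, known p53 targets, are shown with their mature sequences because 2 of the 3 loci rose. They were picked after their values were seen. Sequences are RefSeq's for GRCm38.p6, 5′ to 3′, and capitals mark the seed, bases 2 to 8.
mmu-miR-34a-5p: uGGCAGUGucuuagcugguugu
mmu-miR-34b-5p: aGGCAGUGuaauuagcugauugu
mmu-miR-34b-3p: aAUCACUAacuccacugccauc
mmu-miR-34c-3p: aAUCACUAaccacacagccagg
The miR-34a-5p and miR-34b-5p sequences share 1 seed, and the 3p sequences of miR-34b and miR-34c share another. For Mir34c only the 3p sequence was given in the sources used here, so its 5p seed was not compared. Mir34c, on chromosome 9 beside Mir34b, rose from 6.20, 6.57 and 5.92 to 7.36, 7.46 and 8.03, by 1.39 (SE 0.20, adjusted p = 0.00195). Mir34b rose from 8.03, 8.01 and 8.11 to 8.86, 8.59 and 8.97, by 0.75 (adjusted p = 0.0011), and both loci stayed called without any one array. Mir34a, on chromosome 4, was not called: its controls read 5.76, 5.40 and 5.68, its treated arrays 5.74, 5.76 and 5.46, and the 95% interval of the difference was -0.22 to 0.30. The array reads the hairpin locus, so these values do not separate a mature microRNA from its precursor.

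The let-7 family, whose members repress growth genes in differentiated cells, had loci that moved the opposite way. Of its 12 measured hairpin loci, Mir98 included, 4 were called lower and none higher. The sequences are given because both loci below share the seed, in capitals.
mmu-let-7i-5p: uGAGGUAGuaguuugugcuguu
mmu-let-7d-5p: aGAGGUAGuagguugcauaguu
Mirlet7i fell from 5.54, 5.76 and 5.75 to 4.62, 4.58 and 4.87, a difference of -0.99 (adjusted p = 0.000314), and Mirlet7d from 5.27, 5.49 and 5.31 to 4.85, 4.79 and 5.04, a difference of -0.47 (adjusted p = 0.00836). Both stayed called without any one array, and they too were picked after their values were seen. Over all 579 microRNA genes, 7 were called higher and 26 lower.

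Genes of the integrated stress response, in which phosphorylated eIF2α lets the factor ATF4 be translated, rose as a list. Of 32 measured members, 25 were called higher and none lower, with a median of 0.76, and 21 stayed called without any one array. Ddit3, which encodes the pro-death factor CHOP, rose from 6.69, 6.53 and 6.26 to 9.16, 9.45 and 9.92, by 3.02 (SE 0.23, adjusted p = 5.75e-05), an 8.1-fold rise. Atf4 itself rose by 0.75 (adjusted p = 0.00111), and Trib3, a pseudokinase that feeds back on the response, by 0.80. Among the genes of this list that charge transfer RNAs, Gars, for glycine, rose by 1.32, Nars, for asparagine, by 1.23, and Wars, for tryptophan, by 1.12. Chac1, which degrades glutathione, rose from 4.80, 5.03 and 4.92 to 6.06, 6.01 and 6.18, by 1.17 (adjusted p = 0.000111). Slc7a11, the cystine importer, rose by 1.47, and its partner Slc3a2 by 0.83. Nupr1, Fgf21 and the serine synthesis genes Phgdh and Psat1 were not called, with differences of 0.17, -0.05, -0.21 and -0.05.

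Asns, asparagine synthetase, is a textbook ATF4 target, and rose from 6.33, 6.43 and 6.42 to 7.37, 7.64 and 7.65, by 1.16 (SE 0.11, adjusted p = 0.000196). Its promoter is shown because it holds a match, in capitals, to the ATF4 response letters (TGATGCAAT, TGATGAAAC, TGATGCAAC or TGATGAAAT on either strand), at chr6:7693180-7693429 of GRCm38.p6, minus strand, 5′ to 3′.
Asns promoter: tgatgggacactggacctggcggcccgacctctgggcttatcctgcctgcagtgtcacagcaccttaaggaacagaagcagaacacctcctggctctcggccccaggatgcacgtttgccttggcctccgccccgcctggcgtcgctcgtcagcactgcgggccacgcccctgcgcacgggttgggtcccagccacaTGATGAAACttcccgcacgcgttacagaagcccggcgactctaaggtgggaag
Those letters stood in 5 of 26 windows of the list, 19.2%, and in 0.796% of all windows. Of the 5 genes, Chac1, Asns and Gars were called higher, and Nupr1 and Fgf21 were not called. Among the genes with a window but no match, 16 were called higher and 5 were not called. The rise was thus not limited to promoters with these letters. ATF4 matches overlapped CCAAT matches in 3 of all windows and a CLEAR match, the lysosomal element searched below, in 1.

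The endoplasmic reticulum branch was mixed, with 5 of 20 genes higher and 5 lower. Atf6, a sensor of misfolded protein, rose by 1.35 (adjusted p = 3.41e-05), and Sel1l and Herpud1, of the machinery that removes misfolded proteins, by 1.26 and 1.18. Among chaperones of the lumen, Pdia6 fell by 1.11 (adjusted p = 2.84e-05), Hsp90b1 fell by 0.90 and Hyou1 fell by 0.69. Hspa5, the main chaperone of the compartment, read 7.28, 7.24 and 7.0 in controls and 7.25, 7.33 and 7.27 after treatment, and was not called. Cytosolic heat shock genes were lower in 6 of 14 and higher in 3, and Hsph1 fell by 1.18 (adjusted p = 7.57e-06). The mitochondrial chaperonins Hspe1 and Hspd1 fell, at differences of -1.01 and -0.92.

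Lysosomal genes and subunits of the vacuolar ATPase, the proton pump that acidifies lysosomes, rose in most cases. Of 32 measured, 21 were called higher and 1 lower, with a median of 0.38, and 0.60 when restricted to genes above the dimness limit. As for the p53 targets, a rise could itself carry a gene over that limit. Atp6v1d, the D subunit of the pump's rotor, rose from 10.87, 10.90 and 11 to 13.78, 13.89 and 14.11, by 3.0 (SE 0.13, adjusted p = 6.26e-06), an 8.01-fold rise. Atp6v1h rose by 1.12 and Atp6ap1, an accessory subunit, by 1.02. The proteases cathepsin L (Ctsl) and cathepsin B (Ctsb) rose by 1.07 and 1.03. Mcoln1, the lysosomal calcium channel, rose by 0.85 (adjusted p = 0.000427). Lamp1, a major membrane protein, was not called, at a difference of 0.26 (95% interval 0.01 to 0.51).

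Atp6v0d1, which links the membrane and cytosolic sectors of the pump, rose from 12.39, 12.62 and 13.07 to 13.98, 14.17 and 14.19, by 1.42 (adjusted p = 0.000463). Its promoter is shown for its match, in capitals, to the CLEAR element of lysosomal genes (TCACGTGA, which reads the same on both strands), at chr8:105566035-105566284 of GRCm38.p6, minus strand, 5′ to 3′.
Atp6v0d1 promoter: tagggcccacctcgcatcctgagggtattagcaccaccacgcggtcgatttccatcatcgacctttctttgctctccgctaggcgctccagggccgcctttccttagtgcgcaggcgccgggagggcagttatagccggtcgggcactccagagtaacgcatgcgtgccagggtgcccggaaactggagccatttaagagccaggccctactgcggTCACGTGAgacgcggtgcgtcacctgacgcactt
This element, added to the search after the values were seen, stood in 5 of 25 windows of the list, 20.0%, and in 1.01% of all windows. Atp6v0d1, Mcoln1 and Atp6v1a were called higher, and Gla and Atp6v0e were not called. Among the genes with a window but no match, 11 were called higher, 1 lower and 8 were not called. CLEAR matches overlapped antioxidant element matches (TGACNNNGC) in 39 of all windows.

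Autophagy genes rose in 13 of 27, with none lower. Sqstm1, the cargo receptor p62, rose from 6.21, 6.12 and 6.48 to 8.64, 9.04 and 8.89, by 2.59 (SE 0.13, adjusted p = 1.15e-05). Uvrag, of the class III phosphoinositide kinase complex, rose by 1.01, Atg3, which conjugates LC3 to lipid, by 0.98, and Tfe3, a factor that drives lysosomal genes, by 0.59. Map1lc3b, the LC3 gene itself, was dim, with 4.11, 4.09 and 4.07 in controls and 4.15, 4.14 and 4.17 after treatment, and was not called. NRF2 antioxidant genes were higher in 10 of 19 and lower in 3. Nfe2l2, which encodes NRF2, rose from 5.52, 5.46 and 5.33 to 7.16, 7.08 and 6.71, by 1.54 (adjusted p = 0.000149). Gclc, the first enzyme of glutathione synthesis, rose by 1.24, Hmox1, heme oxygenase, by 1.15 and Cat, catalase, by 1.06. Antioxidant response letters (TGACNNNGC on either strand) stood in 4 of 15 windows of the list, 26.7%, and in 12.5% of all windows. The glutathione transferase Gstm1 fell by 0.77 and thioredoxin, Txn1, fell by 0.54.

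The drug pump genes Abcb1a and Abcb1b, which encode mouse P-glycoproteins that export anthracyclines, both rose. Abcb1b moved from 4.92, 5.03 and 4.96 to 6.44, 6.29 and 6.25, by 1.35 (adjusted p = 1.82e-05), and Abcb1a from 4.91, 4.92 and 4.87 to 6.05, 6.08 and 6.04, by 1.16 (adjusted p = 5.74e-06). They are close paralogs, so probes may read both. Genes of lytic cell death were higher in 5 of 14 and lower in none. Casp4, the caspase that senses bacterial lipopolysaccharide, rose from 4.67, 4.34 and 4.37 to 5.81, 6.04 and 5.92, by 1.47 (adjusted p = 8.18e-05). Mlkl, the pore-forming protein of necroptosis, rose by 0.65, Nlrp3, an inflammasome sensor, by 0.49, and Gsdmd, the pore-forming gasdermin, by 0.38. Of 26 apoptosis genes, 6 were higher and 1 lower: the survival gene Bcl2l1 rose by 0.70 (adjusted p = 0.000832) and the pore-forming Bak1 fell by 0.48 (adjusted p = 0.000928).

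Most genes of sterol and fatty acid synthesis fell. Of 25 measured genes, 20 were called lower and none higher, with a median of -0.90, and 18 stayed called without any one array. Fdps, which makes farnesyl diphosphate for cholesterol, fell from 7.68, 7.60 and 8.14 to 5.40, 5.37 and 5.71, a difference of -2.32 (SE 0.15, adjusted p = 2.84e-05). Hmgcs1, an early step of the mevalonate pathway, fell from 6.25, 5.98 and 5.81 to 4.36, 4.44 and 4.63, a difference of -1.53, so that all 3 treated arrays lay under the dimness limit. Srebf2, the factor that drives the pathway, fell by 0.96 (adjusted p = 2.99e-05), and Insig1, which retains it in the endoplasmic reticulum, fell by 0.90. For fatty acids, Fads2, a desaturase, fell from 10.89, 10.89 and 10.96 to 8.74, 8.97 and 9.11, a difference of -1.98 (adjusted p = 1.39e-05). Elovl6, an elongase, fell by 1.41, Acly, ATP citrate lyase, fell by 1.24, and Fasn, fatty acid synthase, fell by 0.97. Genes of fatty acid uptake and oxidation were higher in 7 of 33 and lower in 2, with a median of -0.03. Of the 33 differences 14 were above 0, and 4 of the 7 rises stayed called without any one array. Hadhb, of the trifunctional protein, rose by 1.27 (adjusted p = 3.48e-05) and Etfa, an electron carrier, by 1.04.

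**Figure D3:**
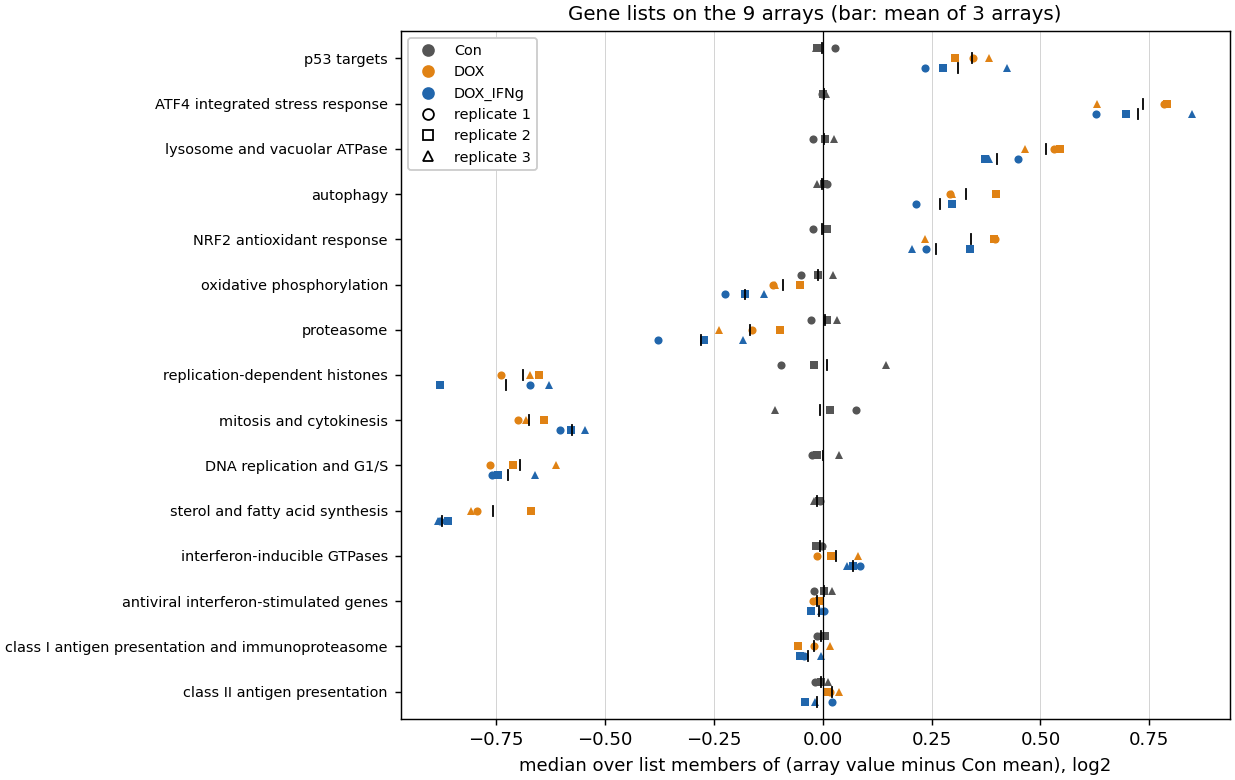
Median over the members of each gene list of the array value minus the control mean, in log2 units, for each of the 9 arrays, coloured by group, with bars for group means. On the 3 combined-treatment arrays the ATF4 list lies between 0.63 and 0.85 and the sterol list between -0.88 and -0.86, while the antiviral list stays within 0.03 of 0.

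Proteasome subunits were lower in 14 of 30 and higher in none, with Psma5 falling from 8.53, 8.65 and 8.67 to 7.41, 7.55 and 7.64, a difference of -1.08 (adjusted p = 3.54e-05). Of 68 genes of oxidative phosphorylation, 22 were lower and 1 higher, and 11 of the 22 stayed called without any one array. Cox6b1, a cytochrome oxidase subunit, fell by 1.90 (adjusted p = 4.26e-05) and Ndufa4 fell by 1.33 (adjusted p = 0.000964). In the citric acid cycle list, 9 of 29 were lower and 3 higher, led by Idh2, which fell from 8.25, 8.45 and 8.57 to 6.69, 6.63 and 6.58, a difference of -1.79 (adjusted p = 1.53e-05). Among 23 glycolysis genes 8 were lower and 3 higher. Pfkm, the muscle phosphofructokinase, fell from 8.08, 7.97 and 8.36 to 6.05, 6.15 and 6.23, a difference of -2.0 (adjusted p = 1.05e-05), while Pfkfb3, which activates that enzyme, rose by 0.91 (adjusted p = 3.62e-05). Of 27 AMPK and p38 genes 6 were higher and 4 lower. The AMPK catalytic subunit gene Prkaa2 rose by 0.72 (adjusted p = 0.000963). The stress kinase gene Mapk14, p38 alpha, fell by 0.31 (adjusted p = 0.00239). Ppargc1a, the coactivator of mitochondrial biogenesis, was dim and not called, at 0.29 (95% interval 0.03 to 0.56).

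Matrix genes were lower in 15 of 31 and higher in 3. Col3a1, collagen III, fell from 11.70, 11.65 and 11.37 to 9.63, 9.45 and 9.58, a difference of -2.02 (adjusted p = 8.04e-06), and Col1a1, collagen I, fell by 1.18 (adjusted p = 2.59e-05). Loxl1, which cross-links elastin, fell by 1.80 (adjusted p = 9.03e-06). Fibroblast markers, of which S100a4 and Col1a1 are also named here, had a mean level of 8.14 to 8.26 on the control arrays and 7.76 to 7.84 with the combined treatment. Of these 11 markers, 2 were higher (Thy1 and Ddr2) and 4 lower, and Thy1, Dcn, Lum, Tcf21 and Fap were under the dimness limit in controls. Vim, vimentin, read 16.04, 16.02 and 15.92 in controls and 16.03, 16.04 and 16.03 after treatment and was not called. Of 10 smooth muscle and pericyte markers 1 was higher and 4 lower, with a median of -0.18 and a mean level of 6.94 to 7.03 on the control arrays and 6.69 to 6.74 with the combined treatment. The part of either marker list in the matrix result was not tested. Of 30 secreted factors of senescent cells, 9 were higher and 5 lower. Besides Mmp2 and Vegfa, Csf1, the macrophage growth factor, rose from 5.92, 5.87 and 5.90 to 6.61, 6.49 and 6.73, by 0.71 (adjusted p = 0.000266), and Il6 rose by 0.63 from under the dimness limit. Tgfb1, a profibrotic growth factor, fell by 0.73 (adjusted p = 0.000187).

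Muscle genes moved in both directions. Of 23 skeletal muscle differentiation genes 5 were higher and 2 lower, with a median of 0.07. Of 37 sarcomere genes 10 were lower and 3 higher. Tnnt2, cardiac troponin T and 1 of the few cardiac markers seen, fell from 8.09, 7.98 and 7.74 to 6.60, 6.50 and 6.46, a difference of -1.42 (SE 0.09, adjusted p = 2.94e-05). Tnnc2, fast skeletal troponin C, fell from 8.22, 8.31 and 8.19 to 6.10, 6.37 and 6.43, a difference of -1.94 (adjusted p = 2.99e-05), and Acta1, skeletal actin, fell by 0.93. Calcium-handling genes were lower in 5 of 23 and higher in 1. Atp2a2, the calcium pump SERCA2, fell from 10.13, 10.24 and 10.09 to 9.23, 9.28 and 9.36, a difference of -0.87 (adjusted p = 6.28e-05), Casq2, cardiac calsequestrin, fell by 0.81, and Gja5, an atrial connexin, fell by 1.03. Among cardiac transcription factors Nr2f2, an atrial identity factor, fell by 1.24 (adjusted p = 0.002), Srf, the activator of actin genes, fell by 0.79, and Nkx2-5 fell by 0.27. Alongside the fall of Myog, the inhibitors Id2 and Id1 rose by 3.06 and 1.24, while Myod1, the factor upstream of Myog, was not called, at 0.30 (95% interval -0.09 to 0.69).

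Few genes that interferon gamma is known to induce passed the test. Of 20 receptor and JAK-STAT chain genes, 3 were called higher and 1 lower. Among 12 interferon-inducible GTPases 1 was higher, and among 33 antiviral genes 1 was higher. Of 17 class I presentation genes 2 were higher and 3 lower, of 11 class II genes none was called, and of 25 chemokines and related genes 3 were higher and 1 lower. Over all genes 8.01% were higher and 9.41% lower, and over genes above the dimness limit 17.1% and 19.7%. On the mean of all arrays, 9 of the 20 chain genes, 1 of the 12 GTPases and 2 of the 33 antiviral genes lay above that limit. So did 7 of the 17 class I genes, 0 of the 11 class II genes and 5 of the 25 chemokines and related genes. The median difference was 0.06 for the GTPases and -0.02 for the antiviral genes, as over all genes. The antiviral median changed sign under some alternatives.

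Gbp2, a guanylate-binding protein that attacks intracellular vacuoles, was the exception among the GTPases: controls read 4.72, 4.79 and 4.68, doxorubicin alone 5.55, 5.63 and 5.61 and the combined treatment 6.02, 6.03 and 5.70. Its difference from control was 1.19 (SE 0.09, adjusted p = 5.75e-05), and the 3 groups did not overlap. Against doxorubicin alone it stood 0.32 higher (95% interval 0.11 to 0.52, adjusted p = 0.966), which did not pass the test. Irgm1, a related GTPase of the vacuole membrane, read 3.68, 3.70 and 3.59 in controls and 3.73, 3.73 and 3.65 after treatment, all under the dimness limit, with a difference of 0.04 (95% interval -0.13 to 0.22). Their promoters are shown side by side because both hold interferon-stimulated response letters (ISRE, GAAA, any 2 bases and GAAA again, on either strand), in capitals, while only Gbp2 was called. They lie at chr3:142620443-142620692, plus strand, and chr11:48871391-48871640, minus strand, of GRCm38.p6, and are written 5′ to 3′.
Gbp2 promoter: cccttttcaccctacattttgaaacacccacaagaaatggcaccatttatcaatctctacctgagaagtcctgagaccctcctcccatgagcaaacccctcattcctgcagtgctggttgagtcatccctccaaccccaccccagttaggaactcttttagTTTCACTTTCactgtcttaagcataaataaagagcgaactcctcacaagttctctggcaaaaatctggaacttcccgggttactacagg
Irgm1 promoter: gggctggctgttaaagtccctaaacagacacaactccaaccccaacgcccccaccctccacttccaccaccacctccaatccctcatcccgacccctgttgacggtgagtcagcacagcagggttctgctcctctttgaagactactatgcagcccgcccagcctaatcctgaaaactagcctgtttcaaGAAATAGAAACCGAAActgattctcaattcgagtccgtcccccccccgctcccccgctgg
The Gbp2 match lies on the opposite strand, and Irgm1 has 2 overlapping matches. ISRE letters stood in 6 of 6 GTPase windows and 13 of 24 antiviral windows (54.2%), against 3.49% of all windows. Of those 19 genes with a match only Gbp2 and Eif2ak2, an RNA-sensing kinase, were called. The call of Eif2ak2, a difference of 0.24 (adjusted p = 0.0265), was lost without control replicate 1 or any 1 of the combined-treatment arrays, with an adjusted p of up to 0.0814. GAS letters (TTCNNNGAA, the same on both strands) stood in 5 of 16 receptor and JAK-STAT windows, 31.2%, against 8.47% of all windows, and none of the 5 genes was called. GAS and ISRE matches overlapped in 21 of all windows.

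**Figure D4:**
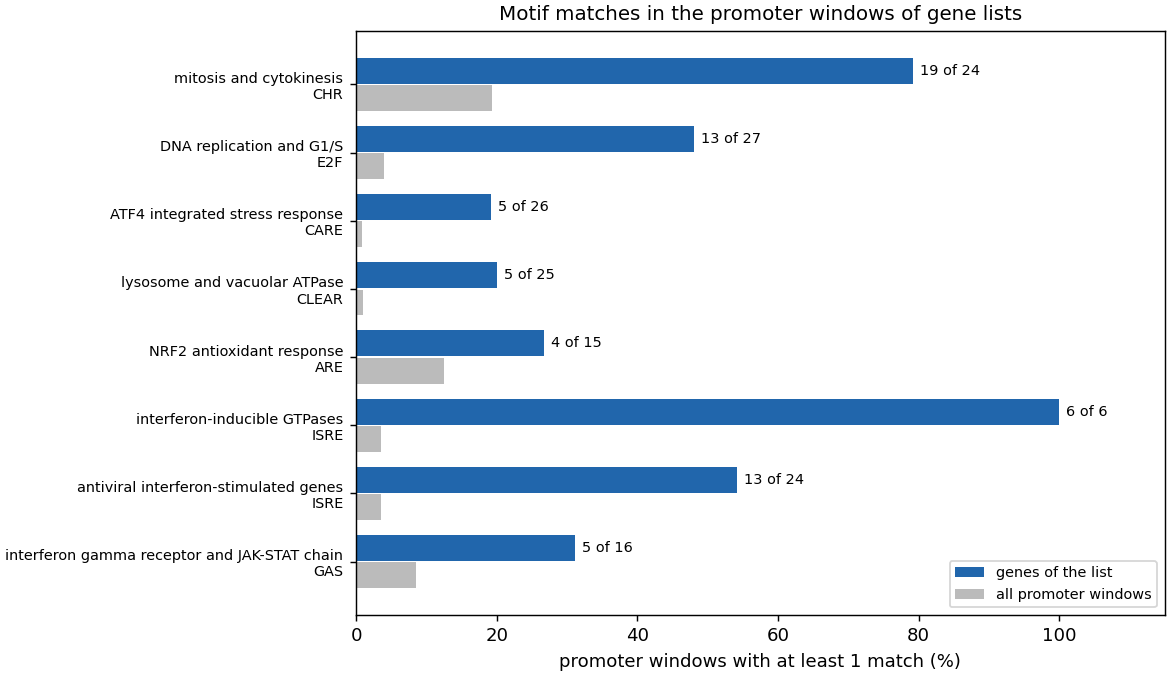
Percent of promoter windows (300 bases) with at least 1 match to a motif, for the genes of a list (blue, with counts) and for all 27025 windows (grey). CHR letters reach 79.2% in the mitotic list beside 19.4% of all windows, and ISRE letters 100% of 6 GTPase windows beside 3.49%, a match being a description of the letters only.

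Along the receptor chain, Ifngr1, which binds the cytokine, read 4.18, 4.17 and 4.26 in controls and 4.15, 4.20 and 4.14 after treatment, under the dimness limit, and Ifngr2 read 5.03, 5.22 and 5.14 and 5.19, 5.23 and 5.21. Jak1 rose from 7.54, 7.51 and 7.43 to 7.77, 7.89 and 7.80, by 0.32 (adjusted p = 0.00496), and Jak2 was not called, at 0.18 (95% interval 0.0 to 0.35). Irf7, a factor of the antiviral loop, rose from 4.04, 4.14 and 4.13 to 4.46, 4.60 and 4.62, by 0.46 (adjusted p = 0.00118), all under the limit, and it rose by 0.50 with doxorubicin alone. Irf1, an early interferon-induced transcription factor, read 3.84, 3.90 and 4.0 and 3.99, 3.97 and 4.1 and was not called (95% interval -0.03 to 0.24). The feedback inhibitor Socs1, the chemokine Cxcl10 and the checkpoint ligand Cd274 were not called either, with differences of 0.03, -0.10 and -0.02.

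In antigen presentation, the peptide transporter genes Tap1 and Tap2 rose by 0.42 (adjusted p = 0.000666) and 0.23 (adjusted p = 0.00968), with doxorubicin alone at 0.40 and 0.27. Tap1 read 4.35, 4.34 and 4.33 in controls, 4.80, 4.73 and 4.69 with doxorubicin alone and 4.74, 4.82 and 4.73 with both, so the treated groups overlapped. Psmb10, an immunoproteasome subunit that interferon gamma is known to induce, fell from 5.84, 6.06 and 5.97 to 5.10, 5.43 and 5.39, a difference of -0.65 (adjusted p = 0.00247). The sister subunit Psmb8 and the class I gene H2-K1 were not called, at -0.04 (95% interval -0.17 to 0.08) and -0.04 (95% interval -0.13 to 0.06). B2m, the shared light chain, was not called at 0.21. Calr, a chaperone of class I assembly and 1 of the 3 genes called lower, stood at -0.24 (adjusted p = 0.0361) and at 0.136 with quantile normalization. It lost its call without control replicate 2 or 3, replicate 1 of doxorubicin alone, or the combined-treatment replicate 1 or 2, with an adjusted p of up to 0.122. The neutrophil chemokine Cxcl1 read 3.83, 4.05 and 3.81 in controls, 3.81, 3.87 and 3.80 with doxorubicin alone and 4.30, 4.25 and 4.56 with both. It rose by 0.47 against control (adjusted p = 0.00933) and stood 0.54 above doxorubicin alone (95% interval 0.33 to 0.76, adjusted p = 0.762), all below the dimness limit.

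**Figure D5:**
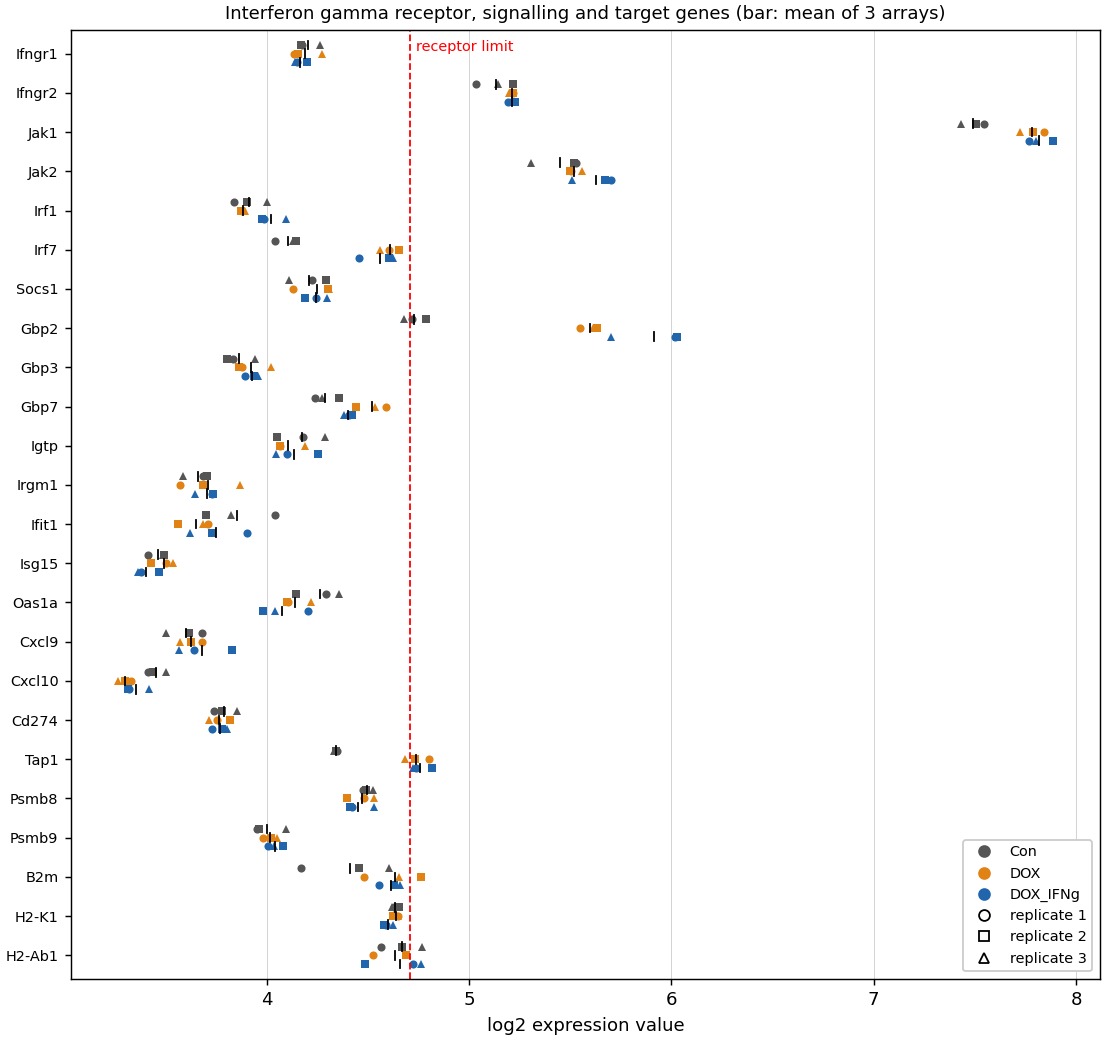
Log2 expression values of genes of the interferon gamma receptor, its signalling and its known targets on the 9 arrays, coloured by group (Con, DOX, DOX_IFNg), with bars for group means and a dashed line at the dimness limit of 4.71 (labelled receptor limit). Gbp2 shows 3 separate groups, with control arrays at 4.72, 4.79 and 4.68 and combined-treatment arrays at 6.02, 6.03 and 5.70, and Irf1, Cxcl10 and Irgm1 lie left of the line on every array.

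Set directly against doxorubicin alone, the combined treatment changed no gene past the threshold. By limma 0 of 30050 genes were called (0%), and the lowest adjusted p was 0.506. An unadjusted p under 0.05 was found for 1503 genes, about as many as that threshold passes where no gene differs. For 98.9% of genes the 95% interval of this difference lay within 1 log2 unit of 0, while for 321 genes it reached 1 or beyond. Single members of the p53 list ranged from -0.25 to 0.25 in this comparison, those of the replication list from -0.29 to 0.17 and those of the ATF4 list from -0.40 to 0.43. The NRF2 list reached down to -0.60, the fibroblast markers to -0.58 and the immediate early genes to -0.54, and the secreted factors reached up to 0.54. The genes with the largest differences among protein-coding genes are given as values. Pinlyp stood at -0.89 (95% interval -1.73 to -0.06), Gstp1, a glutathione transferase, at -0.75 (-1.19 to -0.31), and the odorant receptor Olfr1208 at -0.72 (-0.90 to -0.53). Nqo1, a quinone reductase that handles anthracyclines, read 6.89, 6.53 and 6.32 with doxorubicin alone and 5.85, 5.89 and 6.21 with both, a difference of -0.60 (-0.96 to -0.24). Gadd45g stood at -0.60 (-1.16 to -0.04). In the other direction lay Zfp654 at 0.71 (0.27 to 1.15), Cpeb4, an RNA-binding protein, at 0.67 (-0.20 to 1.53), Prpf39, a splicing factor, at 0.64 (-0.28 to 1.56), and the odorant receptors Olfr110 at 0.63 and Olfr127 at 0.63. Without control replicate 3 the Olfr1208 difference passed the test, as the only gene to do so.

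The 2 comparisons with control share their control arrays, so their values are only set side by side. With doxorubicin alone and with both agents, the differences were -2.79 and -2.88 for Plk1, -2.63 and -2.70 for Mcm6, and 2.71 and 2.79 for Plk2. They were 2.59 and 3.02 for Ddit3, -2.07 and -2.32 for Fdps, and 3.08 and 3.0 for Atp6v1d. By list, doxorubicin alone gave 16 higher p53 targets, 27 lower replication genes, 23 lower mitotic genes, 25 higher ATF4 genes, 21 higher lysosomal genes and 19 lower sterol genes.

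Gene types differed in direction. Of 18989 protein-coding genes 11.5% were higher and 9.23% lower, while of 4284 pseudogenes 161 were higher and 725 lower, and with quantile normalization 300 and 539. Of 913 small nuclear RNA genes, whose products serve in splicing, 1 was higher and 154 lower, with a median difference of -0.48. Their array medians ran from 5.58 to 5.99 in controls, with replicate 3 highest, and from 5.22 to 5.44 after treatment, and 98 were called lower without control replicate 3. That count was 96 with quantile normalization, 86 with the array set as a block (the 6 arrays whose highest value is 19.93 and the other 3), and 317 when dim genes were left out. Many of these genes are near-identical copies that one probe set can read together. Long noncoding RNA genes were rarely called, with 21 of 3172 higher and 34 lower.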

How the data were processed

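The deposited table holds log2 expression values of 65527 transcript clusters on 9 arrays. The authors made them with RMA, per the submitters' processing notes; the version and settings are not given in the sources used here, and log2 is an inference from their range, 2.29 to 19.93. RMA values compare a gene between arrays and do not show a change in total RNA. All value columns were matched to samples by the labels. Clusters were named through the platform annotation: 32493 were listed, 30376 with 1 symbol, and for the 245 genes with more than 1 cluster the brightest was used, giving 30050 genes, of which 29754 matched RefSeq. Clusters with several symbols (2117) or none (33034) were left out of the comparison.

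Groups were fitted with limma 3.58.1 (R 4.3.3; lmFit, eBayes) on all 9 arrays as 3 group means, with 6 residual degrees of freedom, two-sided, with Benjamini-Hochberg adjustment over 30050 genes and a threshold of 0.05. The fit was tested on simulated data. The number of arrays limits the precision: 95% of genes had an interval half-width of up to 0.49. The members and gene lists were chosen with earlier results of these data known, so lists are described by counts and medians, with no set test. Named genes were the 15 largest protein-coding rises and falls whose arrays did not overlap (predicted, clone, pseudogene and antigen receptor symbols left out), from each list the 5 called members that differed most, uncalled members a list is known for, a fixed set of genes, and the 5 largest differences from doxorubicin alone each way; other list members named were picked after their values were seen. Promoter and microRNA sequences are RefSeq's for GRCm38.p6. Alternatives covered the arrays used, replicate and array-set blocks, quantile normalization, median centring, a filter on dim genes, gene type, the prior's trend, array weights, the cluster rule and leaving out arrays.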

Additional observations from a re-analysis of the deposited data

Results flagged for a closer look

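Signal also lay outside the genes of the comparison. Among the 33034 clusters that the annotation used here does not name, 75 were higher and 273 lower after the combined treatment than in controls. Together these are 1.05% of them. The same limma model was fitted apart on the clusters left out of the comparison, with its own Benjamini-Hochberg adjustment. Among the 2117 clusters with several symbols, 37 were higher and 88 lower, 5.9% in all. No gene was assigned to these clusters.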

How the results depend on the processing

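The counts of 2407 higher and 2827 lower genes stayed within 1.5 times under every alternative run except the 2-fold minimum, which by its construction left 325 and 440. Deviations of same-numbered combined-treatment and control arrays correlated at 0.36, -0.08 and 0.33. Between differently numbered arrays the correlations ran from -0.4 to 0.181. The labels give only a number, and what same-numbered arrays share was not tested. With the replicate number as a block the counts were 2293 and 2695, and no count moved by over 1.5 times. Under that block 4 of 215 named genes changed their call. Leaving out 1 array gave 1682 to 2300 higher and 2049 to 2892 lower genes. Testing protein-coding genes only left 181 genes at least 2-fold lower and 284 at least 2-fold higher, beside 440 and 325 over all genes. That run left out the other gene types, pseudogenes and small nuclear RNA genes among them. The count of genes lower than with doxorubicin alone ranged from 0 to 1, the 1 being Olfr1208 without control replicate 3.

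The medians of the p53, replication, mitosis, lysosome and sterol lists kept their sign under every alternative run. With dim genes left out they were 0.754 for p53 targets, -1.07 for replication, -0.661 for mitosis, 0.599 for lysosomal and -0.965 for sterol genes. Dim genes were judged on the mean of all arrays. A rising gene could thus pass through its own rise, and a falling gene through its bright controls. Leaving out control replicate 3 and the combined-treatment replicate 1 together, chosen after seeing the data, gave -0.676 for replication, 0.423 for lysosomal and -0.94 for sterol genes. Leaving out 1 array gave -0.826 to -0.703 for replication, -0.656 to -0.557 for mitosis and -0.919 to -0.785 for sterol genes. The sterol median was also -0.909 with the array set (the 6 arrays that share the highest value and the other 3) as a block, -0.882 with quantile normalization, -0.883 with median centring, -0.918 with array weights and -0.773 with clusters averaged. Some signs reversed, and the cause was not tested. Ribosome biogenesis became 0.0698 with quantile normalization, 0.0604 without dim genes, 0.0102 with array weights and -0.0846 to 0.0149 on leaving out 1 array, the highest without control replicate 1. On leaving out 1 array the JAK-STAT chain ranged from -0.00086, without the combined-treatment replicate 3, to 0.0484, and without dim genes it was 0.0788. The antiviral list became 0.0058 without dim genes, -0.0261 to 0.00405 on leaving out 1 array (the highest without the combined-treatment replicate 2) and 0.000505 without both arrays. The class I list became -0.24 without dim genes. With quantile normalization it became 0.0533, Actb 0.527 and Calr 0.136, and on leaving out 1 array mitochondrial biogenesis ranged from -0.00432, without control replicate 3, to 0.0472. Of the 37 lists besides these 5 and the ATF4 list, the median changed sign under at least 1 alternative in 18. The number of arrays and dim signal limit what small differences can show.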

Other observations

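Some genes varied widely inside a group. Among the 20 protein-coding genes with the widest spread within groups, control replicate 1 was the highest and control replicate 3 the lowest control array in 17. The combined-treatment replicate 1 was the highest and replicate 3 the lowest of its group in 18, and 7 of the 20 genes were called. Cpeb4 read 7.47, 7.49 and 6.58 in controls and 9.92, 9.62 and 8.45 after the combined treatment, a difference of 2.15 (adjusted p = 0.005). Prpf39 read 8.44, 8.03 and 7.30 and 9.84, 9.10 and 8.24 and was not called, at 1.14 (95% interval 0.22 to 2.06). Top1, topoisomerase I, read 9.22, 9.01 and 8.28 and 10.08, 9.80 and 9.26, and its difference of 0.87 missed the threshold (adjusted p = 0.0528).

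Reference genes that are often used to scale other assays were not all level. Hprt, of purine salvage, rose from 9.43, 9.49 and 9.28 to 10.13, 10.25 and 10.06, by 0.75 (adjusted p = 0.000401). Pgk1, a glycolytic enzyme, fell from 12.45, 12.58 and 12.84 to 11.28, 11.55 and 11.69, by 1.12 (adjusted p = 0.00233). Gapdh was not called, at -0.08 (95% interval -0.20 to 0.04).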
